A study of Mus musculus with 12 samples.

Results

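Genes of plasminogen activation, coagulation and fibrinolysis, 9 in number, were examined in 12 mouse brains taken 14 d post-stroke. They were chosen by name for their roles, with earlier results of these data known, out of 49315 genes counted: *Plat*, *Plau*, *Plaur*, *F3*, *F10*, *F13a1*, *Thbd*, *F2r* and *Serpine2*. All 9 were listed with counts, and 8 of 9 passed the filter on low counts that precedes the main test, the exception being *F10*. Male CD45.1 Pep Boy recipients, 8 to 12 weeks old and on a C57Bl6 background, were irradiated with the head shielded and received marrow of which 90% came from CD45.1 Tet2+/+ donors in both groups. The remaining 10% came from CD45.2 Tet2+/+ donors in the 6 mice of the WT group and from CD45.2 Tet2-/- donors in the 6 mice of the *Tet2*-KO group. At 8 to 10 weeks after transplantation every mouse underwent a 30 min occlusion of the right middle cerebral artery followed by reperfusion, and brain RNA was sequenced after depletion of ribosomal RNA. The study speaks of whole brains in one place and of whole hemispheres in another. Recipient cells and most transplanted cells therefore carried intact *Tet2* in both groups, and no sham-operated brain was among these libraries. The treatment entry of the 6 *Tet2*-KO samples names control cells, while their titles and genotype entries give the knockout, and the latter were used.

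Plasminogen is a circulating zymogen that is cleaved to plasmin, the protease that dissolves fibrin, by tissue-type and urokinase-type plasminogen activators. In the brain the activators also act on matrix proteins and on receptors of neurons and glia. On the clotting side, tissue factor with factor VII activates factor X, which generates thrombin; thrombin makes fibrin, factor XIII cross-links it, and thrombomodulin and serpins restrain thrombin.

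WT libraries held 12000261 to 15340787 counts each and *Tet2*-KO libraries 12625047 to 21049763. Levels are CPM, counts scaled to a common library size after TMM normalization, and a negative log2 fold change means a lower level with *Tet2*-KO BM cells. The mouse labels carry replicate numbers but no further information on cage or day, so the spread given is that between mice. Neuron markers summed to between 2600 and 4700 CPM and astrocyte markers to between 4740 and 5370 CPM, so the defining genes of brain tissue were present in every library. *Tet2* itself had a log2 fold change of -0.0097 (SE 0.051, SE being the standard error), which does not check the labels because most cells kept the gene. A pair of mice stood apart within their groups. WT replicate 2 had the highest level of its group in 9 of 9 genes, and *Tet2*-KO replicate 5 had the highest of its group in 7 of 9 and lay within the WT range in 7 of 9. Values without each of them are given for most of the 9 genes, the pathway medians and some marker sums. Correlations are given without *Tet2*-KO replicate 5 only.

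The RefSeq promoter table (GRCm38.p6) matched 6 of 9 genes by symbol, and *Plat*, *Plau* and *Thbd* were not matched. The 250 bases before the RefSeq start of 5 genes are printed here, 5′ to 3′ on the gene's strand, because 3 of them (*F10*, *F13a1*, *Plaur*) were lower with *Tet2*-KO BM cells by the DESeq2 test and 2 (*F3*, *Serpine2*) did not differ beyond their spread. Capitals mark matches on either strand to TGANTCA, the AP-1 motif, and to GGGCGG, the GC box. The windows are chr8:13037058-13037307 (+) for *F10*, chr13:37050245-37050494 (-) for *F13a1*, chr7:24462233-24462482 (+) for *Plaur*, chr3:121723287-121723536 (+) for *F3* and chr1:79858666-79858915 (-) for *Serpine2*. The *Serpine2* window precedes a start that lies inside the gene's full annotated extent, which continues upstream of it.
F10: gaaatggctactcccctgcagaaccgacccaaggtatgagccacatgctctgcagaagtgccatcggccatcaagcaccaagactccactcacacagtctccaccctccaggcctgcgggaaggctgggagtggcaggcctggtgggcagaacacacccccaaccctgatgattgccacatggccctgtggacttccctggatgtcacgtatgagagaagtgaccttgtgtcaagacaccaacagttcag
F13a1: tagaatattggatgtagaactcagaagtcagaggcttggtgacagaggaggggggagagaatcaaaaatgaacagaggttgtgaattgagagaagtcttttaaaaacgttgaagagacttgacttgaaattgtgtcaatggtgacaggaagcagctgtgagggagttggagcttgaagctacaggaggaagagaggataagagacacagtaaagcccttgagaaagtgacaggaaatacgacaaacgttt
Plaur: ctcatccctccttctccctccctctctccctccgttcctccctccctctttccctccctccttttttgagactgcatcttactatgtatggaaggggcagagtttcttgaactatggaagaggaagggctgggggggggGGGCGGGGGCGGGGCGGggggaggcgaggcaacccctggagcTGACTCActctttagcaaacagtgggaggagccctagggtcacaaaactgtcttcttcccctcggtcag
F3: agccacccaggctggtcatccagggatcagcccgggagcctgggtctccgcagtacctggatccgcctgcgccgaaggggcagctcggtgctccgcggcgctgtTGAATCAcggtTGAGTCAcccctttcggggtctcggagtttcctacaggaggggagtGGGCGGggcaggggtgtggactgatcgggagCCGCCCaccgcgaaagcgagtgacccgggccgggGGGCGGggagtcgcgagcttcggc
Serpine2: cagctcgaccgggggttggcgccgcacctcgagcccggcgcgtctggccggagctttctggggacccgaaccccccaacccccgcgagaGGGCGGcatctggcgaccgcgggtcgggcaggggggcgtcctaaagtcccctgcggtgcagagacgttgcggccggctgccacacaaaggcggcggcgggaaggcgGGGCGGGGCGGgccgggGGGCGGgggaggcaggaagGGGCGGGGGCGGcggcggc

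The GC content of these windows was 57.6% for *F10*, 42.8% for *F13a1*, 59.6% for *Plaur*, 70% for *F3* and 78.8% for *Serpine2*, where the median over 32851 promoters was 52.4%. *F3* held 2 AP-1 matches and 3 GC boxes, *Plaur* held 1 AP-1 match, which began 69 bases before the start, and 3 overlapping or adjoining GC boxes, and *Serpine2* held 6 GC boxes and no AP-1 match. The window of *F2r*, not printed, held 1 match of each. Searches on both strands also covered TATAAA, a core promoter motif, and GAGGAAGT, a motif of the myeloid factor PU.1. None of the 4 motifs lay in the windows of *F10* or *F13a1*, and a second listed start of *F13a1* had none either. Of all promoters of this length, 6.75% held an AP-1 match, 32.7% a GC box, 12.4% a TATAAA match and 2.44% a PU.1 match. The matches describe the letters of these windows and no binding was measured.

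Mice transplanted with *Tet2*-KO BM cells had lower mean levels of all 9 genes than mice transplanted with WT BM cells. The mean WT level was 8.11-fold the *Tet2*-KO level in *F10*, 2.30-fold in *Plau*, 2.02-fold in *Plaur*, 2.00-fold in *F13a1*, 1.57-fold in *Thbd* and 1.33-fold in *Plat* (fold changes of the fit except in *F10*, where it is the ratio of means). The *F10* counts were low. Without *Tet2*-KO replicate 5 the ratio of *F10* means was 21.9, from 5 *Tet2*-KO reads in all, and without WT replicate 2 it was 7.36. In *F2r*, *F3* and *Serpine2* the 95% confidence interval of the difference included 0. With edgeR's quasi-likelihood test and Benjamini-Hochberg adjustment over all 20290 tested genes, 0 of the 8 tested genes passed 0.05, where 0.0246% of all genes did in either direction. At an unadjusted p below 0.05, 5 of 8 were lower (*Plat*, *Plau*, *Plaur*, *F13a1*, *Thbd*), where 12.2% of all genes were. The DESeq2 Wald test, which the study used, passed 5 of 9 as lower (*Plat*, *Plaur*, *F10*, *F13a1*, *Thbd*), against 3.38% of all genes. With limma-voom, 5 of 8 passed as lower (*Plat*, *Plau*, *Plaur*, *F13a1*, *Thbd*), against 6.38% of all genes. The result by adjusted p thus depended on the test, whereas the direction was the same in all 3.

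**Figure D1:**
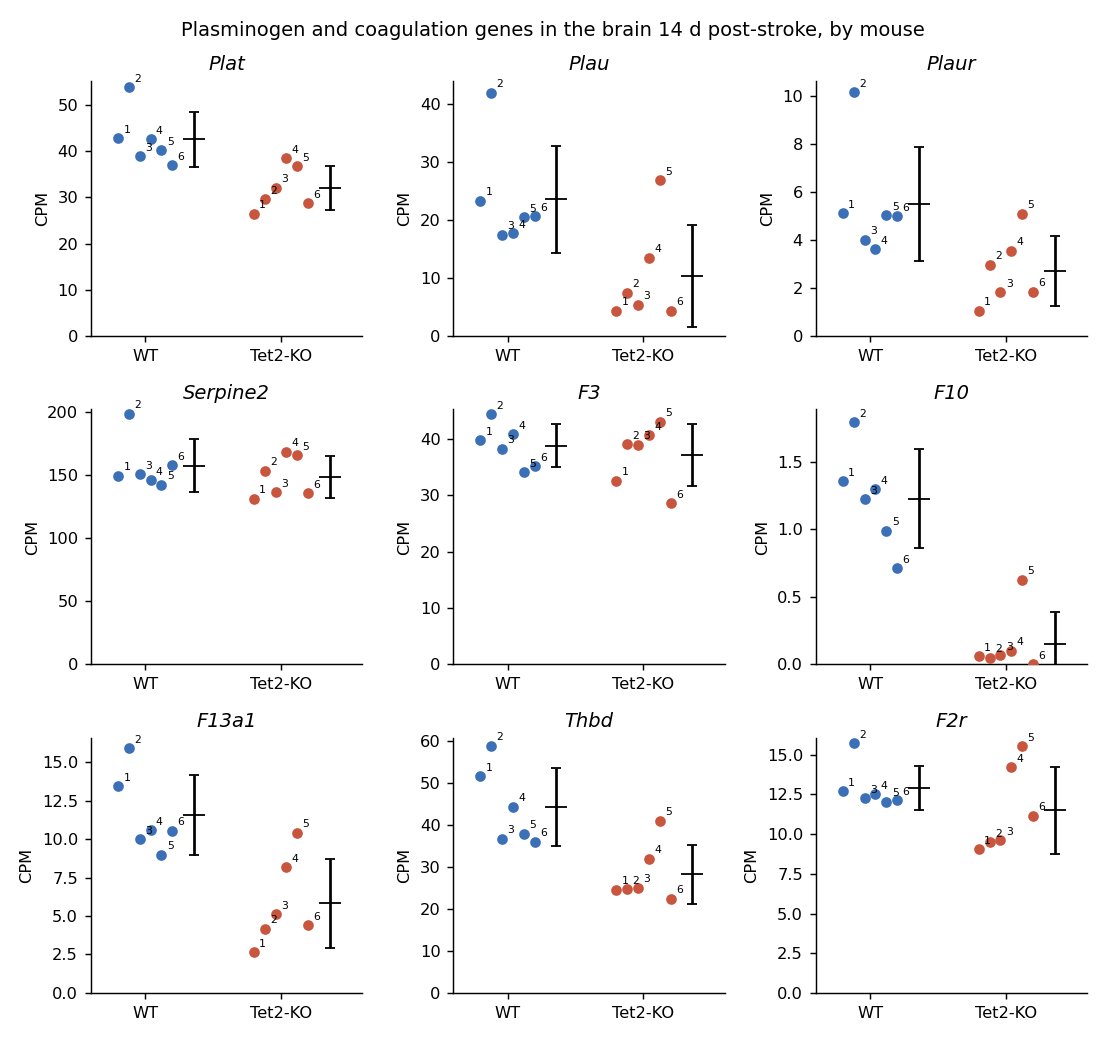
Level of each gene in CPM (vertical axis, from 0) in each mouse, numbered by replicate, for the 6 WT (blue) and 6 *Tet2*-KO (red) brains, with the mean ± SD in black (the lower bar of *F10* in the *Tet2*-KO group is cut off at 0). All 6 *Tet2*-KO points of *F10* lie below all WT points, and 5 of 6 do in *Plat*, *Plau*, *Plaur*, *F13a1* and *Thbd*.

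Of the plasminogen activators, *Plat* (ENSMUSG00000031538, chromosome 8, 22757727 to 22782844, + strand, GRCm38) encodes tissue-type plasminogen activator. In WT brains its level ranged from 37 to 53.8 CPM with a median of 41.4, and in *Tet2*-KO brains from 26.5 to 38.5 CPM with a median of 30.8. The groups overlapped only through *Tet2*-KO replicate 4, and the other 5 lay under the WT range. The means were 42.5 ± 5.94 and 32.0 ± 4.74 CPM (SD, n = 6 each). The log2 fold change was -0.41 (SE 0.104), with an adjusted p of 0.110 in edgeR, 0.0181 in DESeq2 and 0.0168 in limma-voom. An exact two-sided permutation test of *Plat* alone gave p = 0.00433, where the smallest p that 6 against 6 mice allow is 0.00216.

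*Plau* (ENSMUSG00000021822, chromosome 14, 20836660 to 20843385, + strand) encodes urokinase-type plasminogen activator, the activator that works at cell surfaces. WT levels ranged from 17.4 to 42.0 CPM with a median of 20.6, and *Tet2*-KO levels from 4.34 to 26.9 CPM with a median of 6.43. *Tet2*-KO replicate 5, at 26.9 CPM, was above 5 of the 6 WT mice, while the other five lay under the whole WT range. The means were 23.6 ± 9.25 and 10.3 ± 8.82 CPM (SD, n = 6 each), a log2 fold change of -1.20 (SE 0.469), with an adjusted p of 0.171 in edgeR, 0.116 in DESeq2 and 0.0248 in limma-voom. The exact permutation test gave p = 0.0216. Without *Tet2*-KO replicate 5 the *Tet2*-KO mean was 7.02 ± 3.85 CPM (SD, n = 5), and without WT replicate 2 the log2 fold change was -0.96.

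*Plaur* (ENSMUSG00000046223, chromosome 7, 24462484 to 24475968, + strand) encodes the urokinase receptor, which holds the product of *Plau* on leukocytes and other cells. It ranged from 3.63 to 10.2 CPM (median 5.01) in WT and from 1.05 to 5.10 CPM (median 2.41) in *Tet2*-KO brains, and again 5 of 6 *Tet2*-KO values lay under the WT range. The means were 5.50 ± 2.38 and 2.72 ± 1.47 CPM (SD, n = 6 each), a 2.02-fold lower level with *Tet2*-KO BM cells. The DESeq2 adjusted p of *Plaur* was 0.0465 and the limma-voom one 0.0434, both near the threshold, and edgeR's was 0.138 (exact permutation test of the single gene, p = 0.0152). Without WT replicate 2, which was at 10.2 CPM with the next WT mouse at 5.11 CPM, its log2 fold change moved to -0.74.

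The inhibitor of the group, *Serpine2* (ENSMUSG00000026249, chromosome 1, 79794197 to 79861180, - strand), encodes protease nexin-1, a glial serpin that blocks thrombin, urokinase and plasmin. It was the most abundant of the 9 genes, at 142 to 199 CPM (median 150) in WT and 131 to 169 CPM (median 145) in *Tet2*-KO brains. The groups overlapped widely. The log2 fold change was -0.084, with a 95% confidence interval from -0.27 to 0.10 (edgeR adjusted p = 0.599), so a difference of the size seen in *Plat* lay outside the interval.

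Among the clotting genes, *F3* (ENSMUSG00000028128, chromosome 3, 121723537 to 121735048, + strand) encodes tissue factor, the trigger of coagulation, which astrocytes carry in the brain. It ranged from 34.1 to 44.5 CPM in WT and from 28.6 to 43.1 CPM in *Tet2*-KO brains, with the same median of 39.1 CPM in both. Its log2 fold change was -0.060 with a 95% confidence interval from -0.26 to 0.14 (edgeR adjusted p = 0.748). The direction turned to 0.0044 when *Tet2*-KO replicate 6, the lowest mouse, was left out, so *F3* has no direction in these data.

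*F10* (ENSMUSG00000031444, chromosome 8, 13037308 to 13056676, + strand) encodes factor X, the protease that activates prothrombin and is made mainly by the liver. Its counts were low. WT mice had from 9 to 25 reads, 101 in all, and *Tet2*-KO mice had 1, 1, 1, 2, 8 and 0 reads from replicate 1 to replicate 6, 13 in all. A count of 0 in *Tet2*-KO replicate 6 allows a level of up to 0.231 CPM, counting error only. In CPM, WT levels ranged from 0.714 to 1.79 and *Tet2*-KO levels from 0 to 0.628, the upper end being replicate 5. The 2 groups did not overlap, which held for 0.438% of all genes with a count in this direction. The means were 1.23 ± 0.364 and 0.151 ± 0.236 CPM (SD, n = 6 each), a ratio of 8.11. Without *Tet2*-KO replicate 5 the *Tet2*-KO mean was 0.0561 ± 0.0372 CPM (SD, n = 5), from 5 reads in all, and the ratio 21.9, and without WT replicate 2 the ratio was 7.36.

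Because *F10* was below edgeR's filter on low counts it had no place among the main calls. In the edgeR fit without that filter its log2 fold change was -3.10 (SE 0.456) with an adjusted p of 0.00735 in edgeR, and 0.106% of all genes passed as lower there. The DESeq2 adjusted p was 1.14e-05, the 8th smallest p of all genes, and the exact permutation test gave 0.00216, the smallest it can give. *F10* passed the filter in 7 edgeR fits that left out 1 mouse, and only through the WT mice, the group where it was high. Its log2 fold change there lay between -4.20, without *Tet2*-KO replicate 5, and -2.89. Of the 7 edgeR adjusted p-values 2 were below 0.05. They were 0.000221 without *Tet2*-KO replicate 5, where 11% of all genes passed, and 0.0342 without WT replicate 6, where 0.0633% did. Of 6 hepatocyte markers 5 were too low to be tested. Their mean levels in WT and *Tet2*-KO brains were 0.491 and 0.318 CPM for *Apoa2*, 0.291 and 0.252 for *Apoh*, 0.136 and 0.106 for *Serpina1b*, 0.0455 and 0.0758 for *Alb*, and 0.0484 and 0 for *Ahsg*, with overlapping groups in each. The other marker, *Ttr*, is also made by the choroid plexus.

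*F7*, the gene of factor VII, which with tissue factor activates factor X, lies 1498 bases before *F10* on the same strand. It belongs to the clotting list and is named here after its values were seen. WT brains had 3 to 18 *F7* reads, 67 in all, and *Tet2*-KO brains 0 to 2, 8 in all, at 0.820 ± 0.372 and 0.0835 ± 0.0514 CPM (SD, n = 6 each), a ratio of 9.82. The groups did not overlap. The edgeR fit without the filter gave *F7* a log2 fold change of -3.18 (SE 0.478) with an adjusted p of 0.00735, while DESeq2 gave it no adjusted p. The other neighbours did not share the difference. *Proz*, the gene of protein Z, 4237 bases beyond *F10*, was at 11.3 ± 1.29 and 12.1 ± 1.90 CPM with an edgeR adjusted p of 0.605, and *Mcf2l*, on the other side of *F7*, was at 155 ± 13.9 and 178 ± 23.9 CPM with an edgeR adjusted p of 0.179. The 250 bases before *F7* had a GC content of 56.4% and held none of the 4 motifs.

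**Figure D2:**
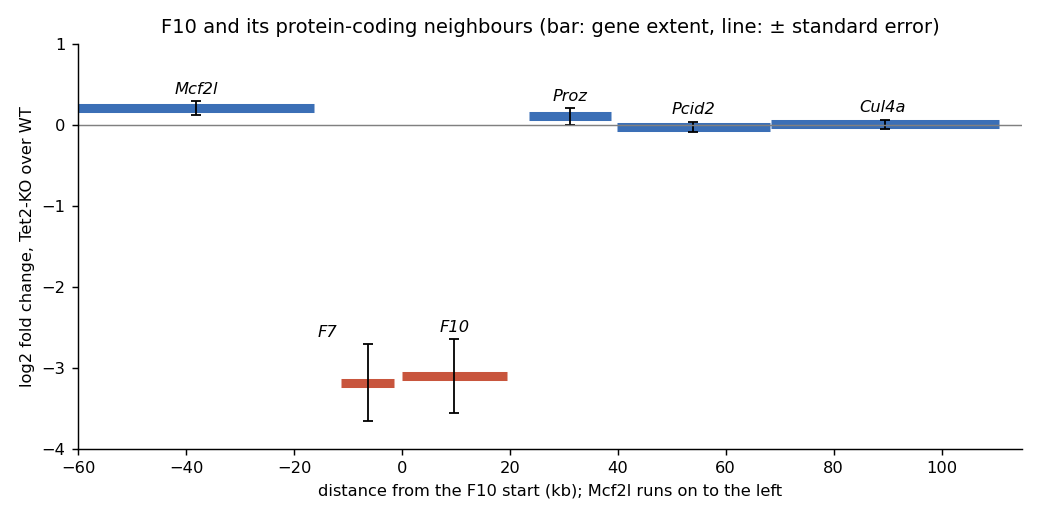
Log2 fold change of *Tet2*-KO over WT (vertical axis) of *F10* and its protein-coding neighbours, drawn as bars over the extent of each gene by distance from the *F10* start in kb (horizontal axis), with the standard error as a black line, from the edgeR fit without the filter on low counts. *F7* and *F10* lie near -3.18 and -3.10, and the neighbours on both sides lie between -0.026 and 0.21.

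*F13a1* (ENSMUSG00000039109, chromosome 13, 36867178 to 37050244, - strand) encodes the catalytic subunit of factor XIII, which cross-links fibrin and is made by macrophages and megakaryocytes. Levels ranged from 8.98 to 15.9 CPM (median 10.6) in WT and from 2.66 to 10.4 CPM (median 4.75) in *Tet2*-KO brains. Only replicate 5 of the *Tet2*-KO mice reached the WT range. The means were 11.6 ± 2.60 and 5.83 ± 2.90 CPM (SD, n = 6 each), a log2 fold change of -1.0 (SE 0.283), with an adjusted p of 0.121 in edgeR, 0.0142 in DESeq2 and 0.0149 in limma-voom. The exact permutation test gave p = 0.00649. A short stretch of its exons, 74 bases, overlaps *Gm30489* on the opposite strand, and the strand setting of the counting is not given in the sources used here. Genes of platelets and megakaryocytes summed to between 3.35 and 5.24 CPM over all mice, with overlap between the groups, and *Itga2b* made up most of the sum at 2.68 CPM in both. Within that list *Pf4*, also a gene of border macrophages, was at 0.916 and 0.544 CPM, with 5 of 6 *Tet2*-KO values under the WT range and a limma-voom adjusted p of 0.0279. Apart from *Pf4* and *Itga2b* the genes of the list were too low to be tested with edgeR. *Treml1* was at 0.394 and 0.189 CPM, *Ppbp* at 0.109 and 0.0785 and *Gp6* at 0.0485 and 0.0297. *Gp9* was near level at 0.199 and 0.18 CPM, and *Tubb1* was higher with *Tet2*-KO BM cells, at 0.0832 and 0.145 CPM. The groups overlapped in each.

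The remaining 2 genes act at the thrombin step. *Thbd* (ENSMUSG00000074743, chromosome 2, 148404466 to 148408188, - strand) encodes thrombomodulin, the endothelial receptor that turns thrombin into an activator of protein C. It ranged from 36 to 58.8 CPM (median 41.1) in WT and from 22.5 to 41.0 CPM (median 24.9) in *Tet2*-KO brains, with *Tet2*-KO replicate 5 alone inside the WT range. Its means were 44.2 ± 9.27 and 28.3 ± 7.03 CPM (SD, n = 6 each), and the log2 fold change was -0.65 (SE 0.168), with an adjusted p of 0.115 in edgeR, 0.00987 in DESeq2 and 0.0193 in limma-voom. The exact permutation test gave p = 0.00866. *F2r* (ENSMUSG00000048376, chromosome 13, 95601803 to 95618487, - strand) encodes PAR1, the receptor that thrombin cleaves. It ranged from 12 to 15.7 CPM in WT and from 9.05 to 15.5 CPM in *Tet2*-KO brains, where 4 of 6 lay under the WT range and the other two, replicates 4 and 5, were above all WT mice but one. Its log2 fold change was -0.17 with a 95% confidence interval from -0.45 to 0.11 (edgeR adjusted p = 0.473). That interval overlaps the one of *Thbd*, from -1.01 to -0.28, and the difference between the 2 genes was not tested.

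**Figure D3:**
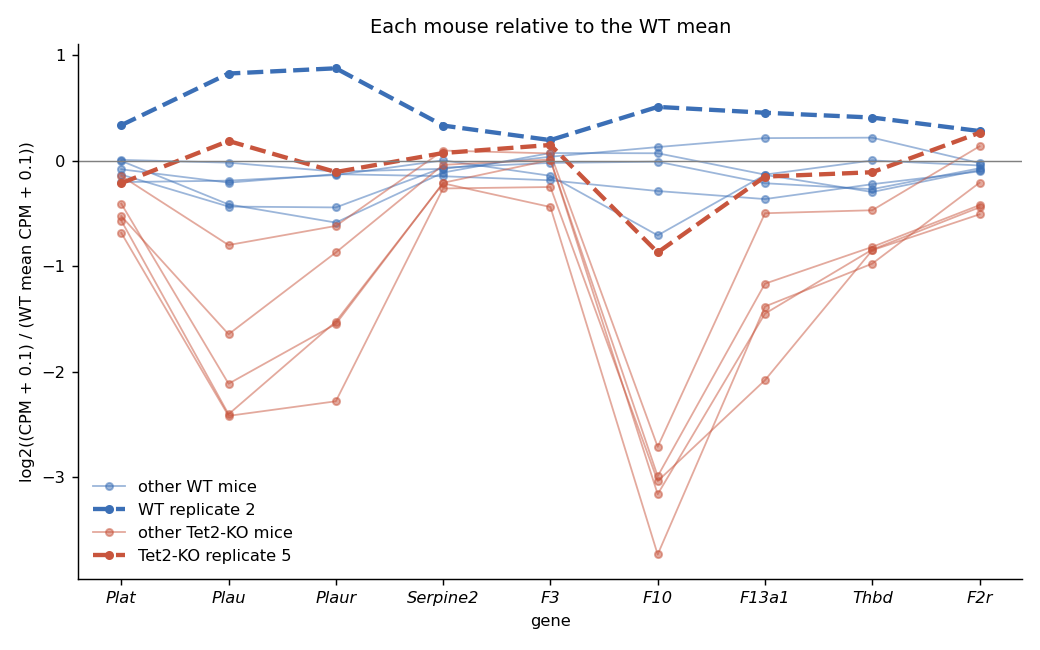
Level of each gene (horizontal axis) in each mouse relative to the WT mean, as log2 of the ratio after adding 0.1 CPM to both (vertical axis); each line is 1 mouse, blue for WT and red for *Tet2*-KO, with WT replicate 2 and *Tet2*-KO replicate 5 as thick dashed lines. WT replicate 2 is the top WT line in 9 of 9 genes, and *Tet2*-KO replicate 5 runs among the WT lines except in *F10* and *Plat*.

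Which mice were high was shared between the genes. *Tet2*-KO replicates 1 and 6 were below the WT range in 9 of 9 genes, replicate 3 in 8, replicate 2 in 7, replicate 4 in 5 and replicate 5 in 2. After subtraction of the group means, the Pearson correlation between pairs of the 8 tested genes ranged from 0.540 (*F3* with *F2r*) to 0.923 (*Plau* with *Plaur*), with a median of 0.819 over 28 pairs, and from 0.392 (*F3* with *F2r*) to 0.917 without *Tet2*-KO replicate 5. It is a description over 12 mice, whose genes share a library, and correlations with the log2 total count ranged from -0.24 to 0.34. With *Tet2*-KO replicate 5 left out, edgeR's test gave adjusted p-values of 0.0209 for *Plat*, 0.0196 for *Plau*, 0.0322 for *Plaur*, 0.0142 for *F13a1* and 0.0101 for *Thbd*, with log2 fold changes of -0.45, -1.72, -1.25, -1.23 and -0.78. All 5, with *F10*, passed there, as did 11% of all genes tested. With WT replicate 2 left out, 0 of 8 passed, against 0.0195% of all genes, and 4 of 8 were lower at an unadjusted p below 0.05, where 15.3% of all genes were in either direction. The log2 fold changes were then -0.33 for *Plat*, -0.96 for *Plau*, -0.74 for *Plaur*, -0.89 for *F13a1* and -0.55 for *Thbd*.

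Markers of several cell types were also lower with *Tet2*-KO BM cells, and their part in the result was not tested. Over all genes 9671 of 20290 tested were lower. With edgeR's test 0 genes of the marker lists passed after adjustment, except 2 of neutrophils. DESeq2 passed 0 activated phagocyte genes, 1 of monocytes and 1 of fibroblasts as lower, against 3.38% of all genes. With limma-voom 5, 5 and 6 passed as lower, against 6.38%. In bulk tissue fewer cells of a type and less RNA per cell cannot be told apart. Genes of activated phagocytes (*Spp1*, *Gpnmb*, *Lgals3*, *Cd68*, *Itgax*, *Lpl*) summed to between 835 and 2040 CPM in WT and between 59.7 and 1270 CPM in *Tet2*-KO brains, replicate 5 being the highest, and all 6 had negative log2 fold changes. Monocyte genes summed to between 364 and 789 CPM against between 117 and 461 CPM, lower in 5 of 5. *Fn1* made up most of that sum, at means of 474 and 221 CPM, so the sum mainly follows this 1 gene. Genes of fibroblasts summed to between 581 and 1310 CPM against between 147 and 735 CPM, lower in 6 of 6, and those of border macrophages to between 37.9 and 68.5 CPM against between 12.1 and 49.0 CPM, lower in 4 of 6. Microglia genes, with 5 of 6 lower, summed to between 562 and 1010 CPM against between 283 and 737 CPM. Endothelial genes, relevant to *Thbd*, summed to between 203 and 253 CPM against between 182 and 221 CPM, with 6 of 6 lower and a median log2 fold change of -0.26. With all 12 mice, neutrophil genes were the only one of 18 marker lists whose sums did not overlap, at 6.19 to 20.0 CPM in WT and 1.38 to 5.65 CPM in *Tet2*-KO brains. Neuron genes were higher in 6 of 6, with a median log2 fold change of 0.26. Astrocyte and oligodendrocyte genes had medians of -0.039 and -0.0062. Red blood cell genes were higher in 4 of 4, with a median of 0.52, and summed to between 19.7 and 28.5 CPM in WT and between 24.4 and 36.1 CPM in *Tet2*-KO brains. Genes of reactive astrocytes were lower in 5 of 5, with a median of -0.73, and summed to between 1180 and 3090 CPM against between 485 and 2130 CPM. T cell genes were lower in 3 of 3 tested, with sums of 8.2 to 13.2 CPM against 4.81 to 8.69 CPM, and B cell genes in 1 of 1, with sums of 1.98 to 5.67 CPM against 0.462 to 2.04 CPM. Without *Tet2*-KO replicate 5 the highest *Tet2*-KO sum was 458 CPM for activated phagocytes, 273 CPM for monocytes, 489 CPM for fibroblasts, 32.1 CPM for border macrophages and 1.54 CPM for B cells. Each lay under the lowest WT sum. That mouse had the highest *Tet2*-KO sum in each of these lists, so leaving it out favours separation of the groups. How often genes or lists separate without it was not computed. Without WT replicate 2 the highest WT sums of these lists were 1220, 515, 874, 54.3 and 4.8 CPM. The sums of the other lists, except neutrophils, still overlapped without *Tet2*-KO replicate 5. The highest *Tet2*-KO sums there were 737 CPM for microglia, 2130 CPM for reactive astrocytes, 221 CPM for endothelial cells and 8.69 CPM for T cells. Without that mouse 11% of all genes passed edgeR's test.

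The other genes of the pathway, taken from 4 lists, were examined for counts in each direction. Of 48 genes 27 were tested. With edgeR's test 0 of these passed 0.05 after adjustment and, without it, 10 were lower and 3 higher at a p below 0.05, where 12.2% of all genes were lower and 10.8% higher. With DESeq2 2 passed, against 4.32% of all genes, and with limma-voom 7 passed, against 9.18%. Without WT replicate 2 the medians of the 4 lists, in the order of the next paragraphs, were -0.23, -0.16, -0.39 and 0.0059, and without *Tet2*-KO replicate 5 they were -0.36, -0.29, -0.68 and 0.016, the last having the opposite sign to its median of -0.0060 with all mice. Over all tested genes the median log2 fold change was 0.010, with 9671 lower and 10619 higher.

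In the plasminogen and fibrinolysis list, 8 of 12 genes were tested, 7 had negative log2 fold changes, and the median was -0.32. At an unadjusted p below 0.05, 4 were lower and 1 higher. The 3 with the smallest p were *Plgrkt*, a plasminogen receptor (17.0 ± 2.52 against 13.4 ± 1.93 CPM, SD, n = 6 each), *Anxa2*, the annexin that binds plasminogen and tissue-type activator at the cell surface (39.2 ± 12.3 against 20.9 ± 8.57 CPM), and *Lrp1*, the receptor that clears activator-inhibitor complexes (1700 ± 265 against 1390 ± 186 CPM). *Anxa2* had a DESeq2 adjusted p of 0.0429. The one higher gene, *Serpini1* for the neuronal serpin that inhibits tissue-type activator, was at 106 ± 15.1 and 125 ± 12.5 CPM, with a log2 fold change of 0.23 and an edgeR adjusted p of 0.172. Plasminogen itself was nearly absent from the RNA, with *Plg* at 0.164 ± 0.118 and 0.165 ± 0.110 CPM (SD, n = 6 each), from 29 reads in all 12 mice. *Serpini1* and *Plg* were chosen after their values were seen.

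In the list of clotting factors and cofactors, 7 of 17 genes were tested, 6 had negative log2 fold changes, and the median was -0.24. The smallest p-values were those of *Ggcx*, the carboxylase that vitamin K-dependent factors need (log2 fold change -0.24, SE 0.0848), *Fgl2*, a fibrinogen-like protein of macrophages and endothelium (-1.13, SE 0.398), and *F5*, the cofactor of factor X (-0.29, SE 0.14). Of these *Fgl2* passed with limma-voom (adjusted p = 0.0153). Its WT levels ranged from 18.6 to 33.8 CPM and its *Tet2*-KO levels from 4.59 to 25.8 CPM, with 5 of 6 *Tet2*-KO values under the WT range, and without *Tet2*-KO replicate 5 the *Tet2*-KO mean was 7.18 ± 2.76 CPM (SD, n = 5).

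In the list of anticoagulants and inhibitors, 6 of 10 genes were tested, 5 had negative log2 fold changes, 4 of them at an unadjusted p below 0.05, and the median was -0.58. *Serpind1*, the gene of heparin cofactor II, was at 16.6 ± 2.01 and 12.7 ± 1.85 CPM (SD, n = 6 each; edgeR adjusted p = 0.114, DESeq2 adjusted p = 0.0292). *Tfpi*, the inhibitor of tissue factor, was at 10.6 ± 2.45 and 7.18 ± 2.22 CPM, and *Serping1*, the C1 inhibitor that also blocks the contact system, at 73.6 ± 28.2 and 28.8 ± 20.6 CPM, all lower with *Tet2*-KO BM cells. All 3 passed with limma-voom. Without *Tet2*-KO replicate 5 the *Tet2*-KO mean of *Serping1* was 21.9 ± 13.5 CPM (SD, n = 5).

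In the list of thrombin and platelet receptors, 6 of 9 genes were tested, 4 had negative log2 fold changes, and the median was -0.0060. Those with an unadjusted p below 0.05 were both higher with *Tet2*-KO BM cells, *F2rl3* for PAR4 (0.696 ± 0.170 and 1.17 ± 0.318 CPM, log2 fold change 0.75, edgeR adjusted p = 0.123) and *Gp1bb*, a platelet glycoprotein gene (5.79 ± 1.07 and 7.20 ± 1.07 CPM, log2 fold change 0.32, edgeR adjusted p = 0.176). *Itgb3*, the third by p, had a log2 fold change of -0.31 (SE 0.15). *F2rl3* passed with limma-voom at an adjusted p of 0.0390.

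**Figure D4:**
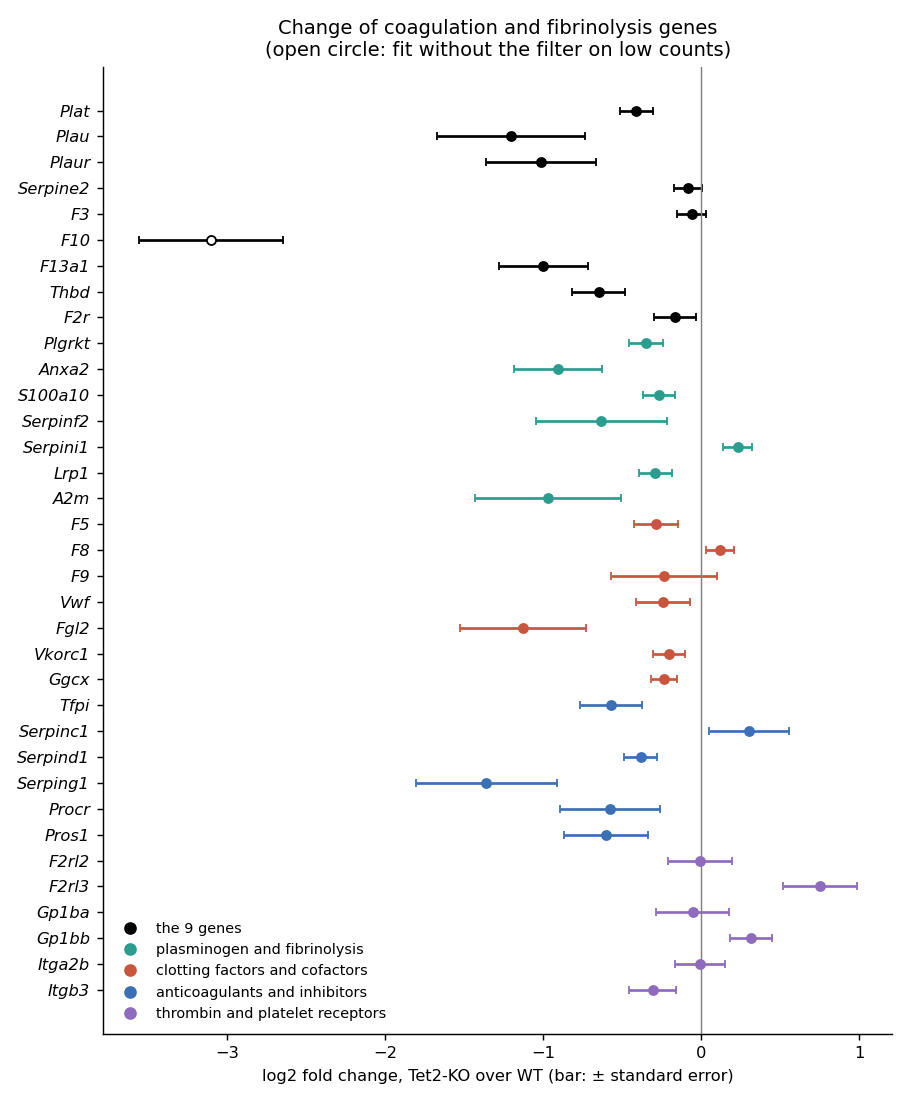
Log2 fold change of *Tet2*-KO over WT (horizontal axis, with standard error) of the 9 genes and of 26 of the 27 tested genes of the 4 pathway lists, coloured by list; the open circle of *F10* comes from the edgeR fit without the filter on low counts. The points of *F10*, *Plau*, *Plaur*, *F13a1*, *Fgl2* and *Serping1* lie at or below -1, while *F2rl3* is the farthest to the right at 0.75.

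To compare levels between genes, CPM were divided by the length of all exons in kb. In WT brains the order was *Serpine2* (19.0 CPM per kb), *F3* (15.3), *Thbd* (11.9), *Plau* (9.97), *Plat* (6.81), *F2r* (3.87), *Plaur* (2.10), *F13a1* (1.72) and *F10* (0.450). The ranges over mice of neighbours in this order overlapped, except between *Plat* and *F2r* and between *F13a1* and *F10*. In *Tet2*-KO brains the order was the same but for *Plat* (5.13 CPM per kb) and *Plau* (4.37), which changed places and whose ranges overlapped. The range of *F3* there, from 11.3 to 17.0 CPM per kb, was above that of *Thbd*, from 6.03 to 11.

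Ratios of CPM per kb within a brain, for pairs chosen after the values were seen and given without a test, differed accordingly. *Thbd* over *F3* was 0.769 ± 0.0989 in WT and 0.514 ± 0.0797 in *Tet2*-KO brains (SD, n = 6 each), with no overlap between the groups. *F13a1* over *F3* was 0.111 ± 0.0162 against 0.0572 ± 0.0225, also with no overlap. *F2r* over *Thbd* was 0.332 ± 0.042 against 0.457 ± 0.0563, higher in every *Tet2*-KO brain. *Plau* over *Plat* was 1.43 ± 0.339 against 0.801 ± 0.589, where *Tet2*-KO replicate 5, at 1.93, lay within the WT range. The groups also overlapped in *Plat* over *Serpine2* (0.359 ± 0.0287 against 0.285 ± 0.0217), *Plau* over *Plaur* and *Plau* over *Serpine2*, and did not in *F10* over *F3*. How often the ratio of any pair of genes separates the groups was not computed.

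For each of the 8 tested genes up to 3 genes with the most similar pattern over the 12 mice, by Pearson correlation of log2 CPM after subtraction of the group means, are given as a description. *Plau* was most like *Ehd4* (0.980), *Gm26740* and *Tbxas1*, and *Plaur* most like *Trem2* (0.985), *Plscr4* and *Tent5c*. *Plat* was most like *Prrx2* (0.978), *Aifm2* and *Myo1e*, and *Serpine2* most like *Daglb* (0.981) and *Cspg4*. *F13a1* was most like *Emilin1* (0.984), *Gngt2* and *Stab1*, *Thbd* most like *Tor4a* (0.973), *Mmp14* and *Pik3cd*, *F2r* most like *Kcnn4* (0.981), *Zic4* and *Ube2l6*, and *F3* most like *Arrb2* (0.968), *Rab20* and *Gm38070*. Each leading partner kept a correlation of at least 0.957 without *Tet2*-KO replicate 5. No correlation was computed without WT replicate 2.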

How the data were processed

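The data are bulk RNA-sequencing read counts of 12 mouse brains taken 14 d post-stroke, 6 per group, grouped by sample titles and genotypes. Per the study's methods the authors trimmed reads with Trimmomatic 0.36, aligned them with STAR 2.5.2b and counted unique reads in exons with featureCounts of Subread 1.5.2. The deposited values are these counts per gene, without normalization. The submitters' notes name the build mm10, while the annotation release and the strand setting are not given in the sources used here. Symbols and coordinates came from GENCODE M21 (GRCm38), and 49056 of 49315 identifiers had a symbol. No gene row was removed from library sizes.

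From the deposited counts, filterByExpr selected the tested genes, TMM gave the scaling, and edgeR 4.0.16 (R 4.3.3) ran its quasi-likelihood test (robust fit, all 12 mice, no covariate, Benjamini-Hochberg adjustment, threshold 0.05). The SE was taken as log2 fold change over the root of the F statistic. The permutation tests used log2(CPM + 0.1) over all 924 assignments. At 12000261 or more counts per mouse, counting error stays wide for genes of a few reads, such as *F10*. Alternatives were the DESeq2 1.42.0 Wald test (the study's test), voom of limma 3.58.1 with quality weights, 2 other scalings in edgeR (size factors of DESeq2, upper quartile), all genes unfiltered, at least 10 counts in every library, a replicate block, another pseudocount and each mouse left out. The fits were also run on simulated counts in which each gene was drawn independently. Those counts held no shift shared by the genes of a mouse, so they cannot show how the tests behave with mice that stand apart.

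Named genes are all 9 genes, the 3 tested genes with the smallest p of each pathway list, the 3 most similar genes and marker lists. The genes and lists were chosen with earlier results of these data known. Single values of 2 genes that this rule or the lists would give are not reported here.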

Additional observations from a re-analysis of the deposited data

Results flagged for a closer look

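In groups of 6 mice a level was noted where the gap from an extreme mouse to its nearest neighbour, divided by the range of the group, exceeded Dixon's 95% critical value of 0.625. Of 18 groups (9 genes in 2 groups) 6 met this, and chance alone gives about 1 in 20. WT replicate 2 was the high mouse in 5 of them, at 53.8 CPM for *Plat* (next mouse 42.8), 42.0 CPM for *Plau* (next 23.3), 10.2 CPM for *Plaur* (next 5.11), 15.7 CPM for *F2r* (next 12.7) and 199 CPM for *Serpine2* (next 158). These values come from 1 library and are not independent of each other. *Tet2*-KO replicate 5 was the high mouse in the other, at 0.628 CPM for *F10*, from 8 reads, where the next *Tet2*-KO mouse was at 0.103 CPM.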

How the results depend on the processing

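With DESeq2 size factors, with upper quartile scaling and with at least 10 counts in every library, 0 of the 8 tested genes passed the adjusted threshold with edgeR's test, as in the reported fit, and all 8 kept a negative log2 fold change. The number passing was 5 with the DESeq2 Wald test, 5 with limma-voom and 1, *F10*, without the filter on low counts, and of the pathway genes 2, 7 and 1 passed, in fits that passed 4.32%, 9.18% and 0.117% of all genes. With each mouse left out in turn, edgeR passed 0 to 6 of the 9 genes and 0 to 7 pathway genes, the higher numbers being those without *Tet2*-KO replicate 5, where 11% of all genes passed. In 8 of the 10 such fits with 0 of the 9 genes, no gene of any kind passed. The 1 gene passed without WT replicate 6 was *F10*, in a fit that passed 0.0633% of all genes. With leave-one-out fits by the other tests, which were chosen after seeing the data, DESeq2 passed 1, 2, 3, 4 or 6 genes and limma-voom 0, 2, 3, 4, 5 or 7, while 0.563% to 12.7% and 0 to 16.8% of all genes passed. *F10* passed in 10 of 12 such DESeq2 fits, *Thbd* in 8, *F13a1* in 7, *Plat* in 6, *Plaur* in 3 and *Plau* in 1. The remaining DESeq2 fits, lacking WT mouse 3 or *Tet2*-KO mouse 4, gave *F10* no adjusted p, so it passed wherever it had one. Among the limma-voom fits *F13a1* passed in 10, *Plat* and *Thbd* in 9, *Plau* in 7, *F10* in 5, *Plaur* in 3 and *F2r* in 2. Only 7 of these 12 limma-voom fits tested *F10*, which passed the filter on low counts through the WT mice and was below it in the rest. The limma-voom number was 0 without *Tet2*-KO replicate 2 and without replicate 3, where it was 0 over all genes too. With a mouse left out, the log2 fold change of *F3* ranged from -0.104 to 0.0044 and its difference on the log2(CPM + 0.1) scale from -0.113 to 0.0046, turning direction without *Tet2*-KO replicate 6, and the cause was not tested. The pseudocount of 1 CPM moved the *F10* difference from -2.70 to -0.96, by its construction, with the exact permutation p at 0.00216 in both. Deviations of same-numbered mice had correlations between -0.169 and 0.229, and 1 of 6 WT mice was most like its own number. These values gave no sign that the numbers pair the mice, but they cannot decide it, because the labels record no cage or day. With the replicate block, 0 of 8 genes and 0 of all genes passed, 4329 of them at an unadjusted p below 0.05. Genes of a few reads per mouse limit what this depth can show.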

Other observations

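Fibrinogen and prothrombin RNA was near the limit of detection. *Fga*, *Fgb* and *Fgg* had 11, 32 and 20 reads over all 12 mice and *F2* had 53, with overlapping groups in each. These genes were chosen after their values were seen.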
